A study of Mus musculus with 23 samples.

Results

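Bdnf, Ntf3, the receptors Ntrk2, Ntrk3, Ngfr and Sort1, the neuropeptide precursor Vgf and the prohormone convertases Pcsk1 and Pcsk2 were followed in the mouse hippocampus after repeated social defeat. These 9 genes were taken by symbol from the 39017 genes of the deposited tables, and all 9 were found in both tables. Poly(A) RNA from whole hippocampi was sequenced as 75 bp single-end reads. Of 23 libraries, 20 carried labels that did not conflict, and they formed 4 groups of 5. The first was mice labelled Nrsn2-KO that went through chronic social defeat stress (CSDS), and the second was unstressed controls of that label. The third was wild-type (WT) mice after CSDS and the last was WT controls. CSDS meant 10 days on which a mouse spent 5 min with an unfamiliar aggressive CD-1 mouse, after which a perforated divider kept the animals apart for the rest of the 24 h. The labels give no age, strain or sex and do not describe the knockout allele or any treatment shared by all groups.

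Neurotrophins are secreted growth factors that neurons make as longer precursors. BDNF acts through the receptor tyrosine kinase TrkB (Ntrk2) and neurotrophin 3 (Ntf3) through TrkC (Ntrk3), while the uncleaved precursors bind p75NTR (Ngfr) together with sortilin (Sort1). In neurons BDNF and many peptide hormones are sorted into dense core vesicles, where the convertases PC1/3 (Pcsk1) and PC2 (Pcsk2) cut peptide precursors such as VGF, and release follows activity. In the hippocampus Bdnf is made by granule cells and pyramidal cells and its transcription responds to neuronal activity.

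Nrsn2, the gene named in the genotype label, was not lower in libraries with that label, at 32.0 to 37.4 RPKM after CSDS and 28.0 to 33.1 RPKM in controls, against 27.3 to 33.3 RPKM and 25.3 to 31.5 RPKM in WT. These are whole-gene values and do not show whether protein was made, so the term "knockout label" is used below. RPKM is reads per kilobase of gene, scaled to library size. Depth, estimated from the low values, was 25.6 to 55.6 M reads, with a median of 44.7 M. Titles and treatment fields disagreed for 3 libraries (WT 9B, knockout-labelled 10B and 11), which are titled control but listed as CSDS, and these were left out of the comparisons. Control 10 of each genotype stood apart in the sex-linked genes: Xist was 48.2 RPKM in the knockout-labelled control 10 and 56.5 RPKM in the WT control 10, against at most 1.60 RPKM in the other 21 libraries. Ddx3y, a Y-linked gene, was 0.499 and 0.163 RPKM in these libraries, against at least 8.75 RPKM elsewhere. Xist was 1.45 and 1.60 RPKM in the knockout-labelled libraries 10B and 11 of conflicting label, and at most 0.0618 RPKM in all remaining libraries. These genes were picked with their values in view. Structural RNAs without poly(A) tails were lower after CSDS under both labels, and red blood cell genes were higher after CSDS in WT. Choroid plexus genes varied within groups, with a summed level of 22.7 to 4883 RPKM among WT controls. Markers of neurons in general were present in every library, with a summed level of 1209 to 1410 RPKM for 6 genes, among them Snap25, Rbfox3 and Slc17a7.

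The 9 genes differed widely in level. Over the 20 libraries the mean was 81.1 RPKM for Sort1, 43.8 for Ntrk2, 37.2 for Vgf and 30.9 for Pcsk2. Next came Ntrk3 at 10.3 RPKM, Pcsk1 at 6.32, Bdnf at 4.91, Ntf3 at 3.29 and Ngfr at 0.69. The range over libraries of Sort1 lay wholly above that of Ntrk2, Pcsk2 above Ntrk3, and Ntf3 above Ngfr, while the other neighbours in this order had ranges that overlapped. Per length, Sort1, Ntrk2 and Ntrk3 were thus more abundant than both ligands, and Ngfr less. In WT controls Pcsk1 was 1.65 to 2.20 times the level of Bdnf, and in the knockout-labelled CSDS libraries 0.871 to 1.27 times, with Pcsk1 above Bdnf in 3 of 5. The coefficient of variation within groups was 13.2% to 28.3% for Ngfr and 2.13% to 17.0% for the other 8 genes. From the estimated depth and the summed exon length, Ngfr rested on about 43 to 153 reads per library and Bdnf on about 869 to 1774. These read numbers are approximate, since they rest on GENCODE exon lengths, which may differ from those the authors used.

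**Figure D1:**
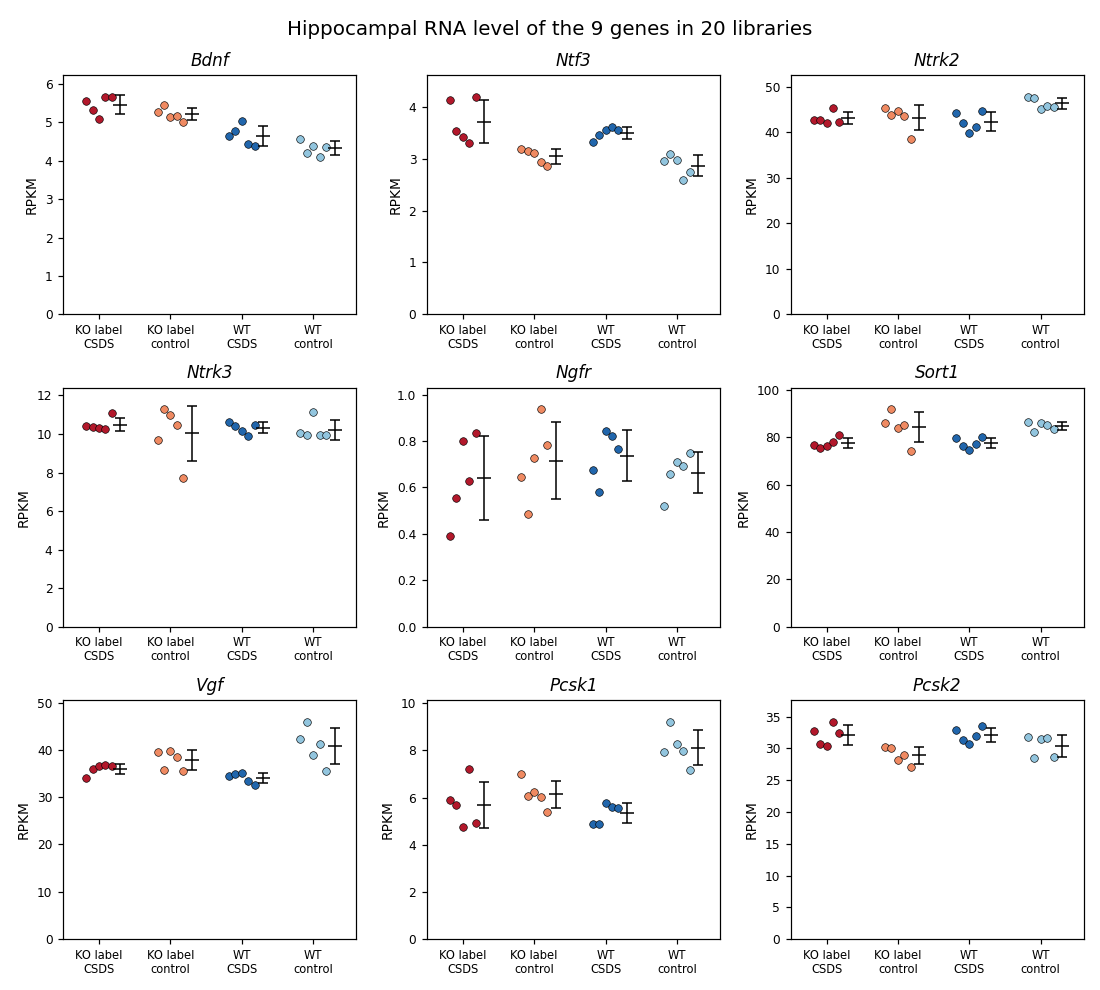
RPKM of the 9 genes in each of 20 libraries, by group, with 5 points per group and the mean and SD beside them; y axes start at 0 and differ between panels. Within each condition Bdnf is higher in all 5 libraries of the knockout label than in those of WT, while Pcsk1 is highest in WT controls, at 7.16 to 9.21 RPKM.

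Among the ligands, Bdnf (ENSMUSG00000048482, chr2:109674700-109727007, mm10, plus strand) was higher in libraries of the knockout label than in WT, with or without defeat. After CSDS the knockout-labelled libraries had 5.56, 5.32, 5.09, 5.67 and 5.66 RPKM, against 4.66, 4.77, 5.04, 4.44 and 4.37 RPKM in WT. The lowest knockout-labelled library lay just above the highest WT library. Among controls the values were 5.26, 5.46, 5.16, 5.17 and 5.02 RPKM for the knockout label and 4.58, 4.20, 4.38, 4.11 and 4.35 RPKM for WT. These groups did not overlap either, and across conditions a single WT library, CSDS 3 at 5.04 RPKM, exceeded a single knockout-labelled library, control 10 at 5.02 RPKM. In limma's test across all genes, with Benjamini-Hochberg adjustment, the log2 difference was 0.21 ± 0.04 (SE, adjusted p = 0.00506, ratio of means 1.17) after CSDS. Among controls it was 0.24 ± 0.04 (adjusted p = 0.00140, ratio 1.21). Bdnf passed this test among controls in all 20 alternative settings and after CSDS in 19 of 20, the exception being the fit with the replicate number as a block (adjusted p = 0.0565).

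For defeat itself Bdnf did not pass the test under either label. Its mean was 5.46 ± 0.25 RPKM after CSDS and 5.21 ± 0.16 RPKM in controls of the knockout label (SD, n = 5 each), a log2 difference of 0.06 ± 0.04 (limma adjusted p = 0.308). In WT it was 4.66 ± 0.27 RPKM after CSDS and 4.32 ± 0.18 RPKM in controls, a difference of 0.10 ± 0.04 with a 95% interval of 0.0012 to 0.19 (adjusted p = 0.133). All 5 WT CSDS libraries were above the mean of the controls, but the groups overlapped. The gene is transcribed from several start sites, and the values here cover the whole gene, so use of one start over another was not measured. An antisense gene, Gm45346, shares 896 exonic bases with Bdnf, and without strand its reads cannot be told from those of Bdnf.

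Markers of dentate granule cells, a main site of Bdnf expression, also had higher mean levels under the knockout label. Of 8 such genes, 3 passed as higher under the knockout label among controls and 0 after CSDS. The shares of all genes that passed as higher were 2.45% and 1.51%. Their summed level was 80.2 to 92.6 RPKM in knockout-labelled controls and 56.0 to 83.0 RPKM in WT controls. After CSDS it was 70.3 to 89.7 RPKM for the knockout label and 67.8 to 78.9 RPKM for WT, with no gene at 0 in any library. The mean log2 level of the list was 3.15 against 2.87 among controls (exact permutation test, two-sided, p = 0.0238) and 3.13 against 2.96 after CSDS (exact p = 0.0397). Adjusted over the 17 marker lists these were 0.101 and 0.112. Some other lists had a smaller exact permutation p. Among controls it was 0.0079 for thalamus markers, which were lower under the knockout label (adjusted 0.101). After CSDS it was 0.0079 for red blood cell genes, which were also lower (adjusted 0.067). No list passed after adjustment in either comparison. Markers of CA1 pyramidal cells were lower under the knockout label, at 3.975 against 4.12 among controls and 3.953 against 3.991 after CSDS. Their exact permutation p was 0.032 and 0.540, or 0.108 and 0.706 adjusted. CA3 pyramidal markers were at 2.66 against 2.605 among controls and 2.54 against 2.556 after CSDS (exact permutation p = 0.571 and 0.770). The part of granule cell content in the Bdnf difference was not tested, and in bulk tissue more cells of a type and more RNA per cell cannot be told apart.

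Ntf3 (ENSMUSG00000049107, chr6:126101412-126166910, minus strand), which encodes the TrkC ligand neurotrophin 3, was higher after CSDS under both labels. Knockout-labelled libraries had 4.13, 3.53, 3.43, 3.31 and 4.20 RPKM after CSDS, against 3.19, 3.15, 3.12, 2.94 and 2.87 RPKM in controls. WT libraries had 3.33, 3.45, 3.56, 3.61 and 3.56 RPKM after CSDS, against 2.96, 3.09, 2.98, 2.59 and 2.75 RPKM in controls. Neither pair of groups overlapped. The log2 difference was 0.24 ± 0.06 for the knockout label (limma adjusted p = 0.0301) and 0.25 ± 0.05 for WT (adjusted p = 0.00464), each a ratio of means of 1.22. The difference between these effects was 0.00 ± 0.08, with a 95% interval of -0.17 to 0.16. For the knockout label the call was lost without CSDS library 1 (adjusted p = 0.0672), CSDS library 5 (0.0591), control 8 (0.0522) or control 9 (0.0684), while in WT it held without any 1 library. Between genotypes Ntf3 did not pass, at 0.07 ± 0.06 after CSDS (adjusted p = 0.579) and 0.08 ± 0.06 among controls (adjusted p = 0.519).

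Of the receptors, Ntrk2 and Sort1 were slightly lower after CSDS in WT, and Ntrk3 and Ngfr did not pass in any of the 5 comparisons. Ntrk2 (ENSMUSG00000055254, chr13:58806569-59133970, plus strand) encodes TrkB, and its value joins the full-length form with truncated forms that lack the kinase. In WT it was 44.2, 42.0, 39.9, 41.2 and 44.6 RPKM after CSDS, against 47.8, 47.4, 45.2, 45.8 and 45.5 RPKM in controls. Every CSDS library was below every control, and the log2 difference was -0.13 ± 0.03 (limma adjusted p = 0.0211). Under the knockout label it was 42.8, 42.8, 42.1, 45.3 and 42.2 RPKM after CSDS, against 45.4, 43.8, 44.7, 43.6 and 38.4 RPKM in controls. The groups overlapped, and the difference was 0.00 ± 0.04 with a 95% interval of -0.10 to 0.09 (adjusted p = 0.974). The lowest of these 10 values came from control 10, the library with high Xist. The test of the 2 effects against each other gave 0.13 ± 0.06 (unadjusted p = 0.0380, adjusted p = 0.401).

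Sort1 (ENSMUSG00000068747, chr3:108284082-108361511, plus strand) encodes sortilin, which binds proneurotrophins with p75NTR and sorts BDNF into the regulated secretory pathway. WT libraries had 79.6, 76.5, 74.8, 77.3 and 80.2 RPKM after CSDS, against 86.5, 82.3, 86.2, 85.1 and 83.6 RPKM in controls. The groups were apart, with a log2 difference of -0.12 ± 0.03 (limma adjusted p = 0.0069). Knockout-labelled libraries had 76.8, 75.4, 76.5, 77.9 and 80.9 RPKM after CSDS, against 86.0, 91.9, 84.1, 85.2 and 74.3 RPKM in controls. Control 10 was below every CSDS library and the other 4 controls were above them. The difference was -0.12 ± 0.05 (adjusted p = 0.135). It passed in the fit of all 4 groups, with no library left out (-0.12 ± 0.04, adjusted p = 0.0451), and without control 10 (-0.16, adjusted p = 0.00899). The 2 effects differed by 0.01 ± 0.06, with a 95% interval of -0.11 to 0.13. The antisense gene Gm12523 shares 338 exonic bases with Sort1.

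Ntrk3 (ENSMUSG00000059146, chr7:78175959-78738012, minus strand), the TrkC gene, averaged 10.5 ± 0.35 RPKM after CSDS and 10.0 ± 1.42 RPKM in controls of the knockout label, and 10.3 ± 0.29 RPKM after CSDS and 10.2 ± 0.52 RPKM in WT controls (SD, n = 5 each). The CSDS difference was 0.07 ± 0.08 for the knockout label and 0.01 ± 0.04 for WT (limma adjusted p = 0.618 and 0.797). The wide spread of the knockout-labelled controls came from control 10, at 7.74 RPKM, with the other 4 at 9.68 to 11.3 RPKM. Ngfr (ENSMUSG00000000120, chr11:95568818-95587735, minus strand), which encodes p75NTR, was low everywhere. It averaged 0.642 ± 0.18 RPKM after CSDS and 0.715 ± 0.17 RPKM in controls of the knockout label, and 0.737 ± 0.11 RPKM after CSDS and 0.664 ± 0.087 RPKM in WT controls. At this level the 95% interval of the CSDS difference ran from -0.38 to 0.19 for the knockout label and from -0.095 to 0.27 for WT. The cholinergic neurons of the septum, which carry p75NTR, left little trace: 3 of the 4 marker genes listed were in the tables and together reached 0.169 to 1.15 RPKM.

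The largest change among the 9 genes was in Pcsk1 (ENSMUSG00000021587, chr13:75089826-75134861, plus strand), which encodes PC1/3, the convertase that acts first on many neuropeptide precursors. In WT it was 4.89, 4.89, 5.76, 5.60 and 5.57 RPKM after CSDS, against 7.93, 9.21, 8.28, 7.96 and 7.16 RPKM in controls. The highest CSDS library was well below the lowest control. The log2 difference was -0.56 ± 0.07 (limma adjusted p = 0.000635), a ratio of means of 0.659. Under the knockout label it was 5.88, 5.69, 4.76, 7.19 and 4.93 RPKM after CSDS, against 6.99, 6.05, 6.24, 6.04 and 5.40 RPKM in controls. These groups overlapped, with CSDS library 4 above all controls, and the difference was -0.11 ± 0.10 (adjusted p = 0.494). The WT effect passed in all 19 alternative settings, and the knockout-label effect in none of 19.

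Pcsk1 was also lower under the knockout label than in WT among controls, by 0.37 on the log2 scale (-0.37 ± 0.09, limma adjusted p = 0.0241, ratio of means 0.758), with no overlap between the groups. This call held in 15 of 20 alternative settings. It was lost without knockout-labelled control 7 (adjusted p = 0.0511) or 10 (0.0537) and without WT control 7 (0.0630) or 9 (0.0513), and also when the libraries of conflicting label were assigned by treatment field (0.112). After CSDS the groups overlapped, at 5.69 ± 0.97 RPKM for the knockout label and 5.34 ± 0.42 RPKM for WT (0.07 ± 0.09, 95% interval -0.11 to 0.26, adjusted p = 0.738). The difference between the CSDS effects, knockout label minus WT, was 0.45 ± 0.13 with a 95% interval of 0.18 to 0.71. Its unadjusted p was 0.00218 and its adjusted p over all genes 0.158, so it did not pass. This difference and both genotype comparisons share the same libraries. Of 18 immediate early genes, which neurons switch on with activity, 3 passed as lower under the knockout label among controls and 0 as higher, where 1.50% of all genes were lower. Their summed level was 154 to 192 RPKM in knockout-labelled controls and 168 to 209 RPKM in WT controls, with no gene at 0, and their median log2 difference was -0.12, against 0.0076 over all genes. The mean log2 level of the list was 2.82 against 2.94 (exact permutation test, two-sided, p = 0.159, adjusted over the 17 marker lists 0.294). Their part in the Pcsk1 difference was not tested.

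Pcsk1 is a known target of cyclic AMP signalling, and the stretch around its start is shown because it holds the matching element. RefSeq windows of 250 bases before and 50 after a start (GRCm38.p6) were at hand for 6 of the 9 genes, and both strands were searched for TGACG, the core of the cyclic AMP response element, and for the full palindrome TGACGTCA. The Pcsk1 window and the single Bdnf window with a match, out of 7 for that gene, are given 5′ to 3′ with the matches in capitals.
Pcsk1 chr13:75089607-75089906, plus strand: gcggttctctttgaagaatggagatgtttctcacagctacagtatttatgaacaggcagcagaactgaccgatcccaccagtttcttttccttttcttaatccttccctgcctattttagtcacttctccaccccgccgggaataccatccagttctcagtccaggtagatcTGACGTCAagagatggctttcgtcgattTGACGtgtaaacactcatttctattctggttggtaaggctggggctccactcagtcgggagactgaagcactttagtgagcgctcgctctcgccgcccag
Bdnf chr2:109692186-109692485, plus strand: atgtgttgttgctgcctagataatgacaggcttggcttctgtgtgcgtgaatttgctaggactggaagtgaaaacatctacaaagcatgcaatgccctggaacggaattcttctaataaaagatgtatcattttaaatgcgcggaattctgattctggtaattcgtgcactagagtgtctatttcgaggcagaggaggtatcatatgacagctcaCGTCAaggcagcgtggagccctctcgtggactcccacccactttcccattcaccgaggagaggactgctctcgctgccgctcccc
In Pcsk1 the palindrome begins 78 bases before the start and a further TGACG 50 bases before it. The palindrome counts once on each strand, since it contains TGACG in both directions. In Bdnf the match, on the minus strand, begins 35 bases before the start. Pcsk2 was the other gene with TGACG, 34 bases before its start. Of 32851 windows of this length, 20.8% held TGACG and 1.79% the palindrome. The AP-1 element TGACTCA, whose reverse complement is TGAGTCA, was in 5.2% of the windows and in none of the 6 genes. A match describes the letters of a window and does not show that a factor binds there.

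Pcsk2 (ENSMUSG00000027419, chr2:143546156-143816285, plus strand) encodes PC2, which usually acts after PC1/3. Knockout-labelled libraries had 32.8, 30.7, 30.4, 34.2 and 32.4 RPKM after CSDS, against 30.3, 30.1, 28.1, 29.0 and 27.0 RPKM in controls. The groups were apart by a narrow margin, and the log2 difference was 0.15 ± 0.04 (limma adjusted p = 0.0366). WT libraries had 32.9, 31.4, 30.7, 32.0 and 33.5 RPKM after CSDS, against 31.8, 28.4, 31.5, 31.6 and 28.6 RPKM in controls. These overlapped, and the difference was 0.08 ± 0.04 (adjusted p = 0.189). The 2 effects differed by 0.07 ± 0.06 (adjusted p = 0.685). The knockout-label call held in 12 of 19 alternative settings and was lost without CSDS library 1 (0.0825), 4 (0.0861) or 5 (0.0724) and without control 8 (0.0790) or 9 (0.0718). The antisense genes Pcsk2os1 and Pcsk2os2 share 260 and 99 exonic bases with Pcsk2. The start of Pcsk2 lies 8.82 Mb and that of Bdnf 42.7 Mb from Nrsn2 on the same chromosome.

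Vgf (ENSMUSG00000037428, chr5:137026392-137033351, plus strand), a precursor of neuropeptides that neurotrophins induce in neurons and that the convertases cut, fell in WT. It was 34.4, 35.0, 35.1, 33.4 and 32.6 RPKM after CSDS, against 42.4, 46.0, 38.9, 41.3 and 35.6 RPKM in controls. The highest CSDS library was just below the lowest control, which was control 10. The log2 difference was -0.25 ± 0.06 (limma adjusted p = 0.0122, ratio of means 0.835). Knockout-labelled libraries had 34.2, 36.0, 36.6, 36.8 and 36.5 RPKM after CSDS, against 39.6, 35.7, 39.8, 38.6 and 35.5 RPKM in controls. The groups overlapped and the difference was -0.07 ± 0.04 (adjusted p = 0.275). The test of the 2 effects against each other gave 0.18 ± 0.07 (unadjusted p = 0.0207, adjusted p = 0.328). Among controls the knockout label was at 37.8 ± 2.10 RPKM and WT at 40.8 ± 3.86 RPKM, a difference of -0.11 ± 0.05 that did not pass (adjusted p = 0.277).

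Counted together, 2 of the 9 genes passed after CSDS under the knockout label, both higher (Ntf3 and Pcsk2), where 15.0% of 18259 genes tested passed, 6.17% higher and 8.88% lower. In WT 5 of 9 passed, 1 higher (Ntf3) and 4 lower (Pcsk1, Vgf, Ntrk2 and Sort1), where 22.4% of 18274 genes did, 9.88% higher and 12.5% lower. The median log2 difference over the 9 genes was -0.0029 under the knockout label and 0.015 in WT, against -0.0067 and -0.0017 over all genes tested. Groups did not overlap for 2 of 9 under the knockout label and 5 of 9 in WT, against 12.9% and 17.1% of all genes. In the test of the difference between the effects 0 of 9 passed, with 3 at an unadjusted p under 0.05, and 0.148% of 18263 genes passed. With the 3 libraries of conflicting label assigned by treatment field, Pcsk1 alone passed in WT (adjusted p = 0.0446) and 0 of 9 under the knockout label.

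**Figure D2:**
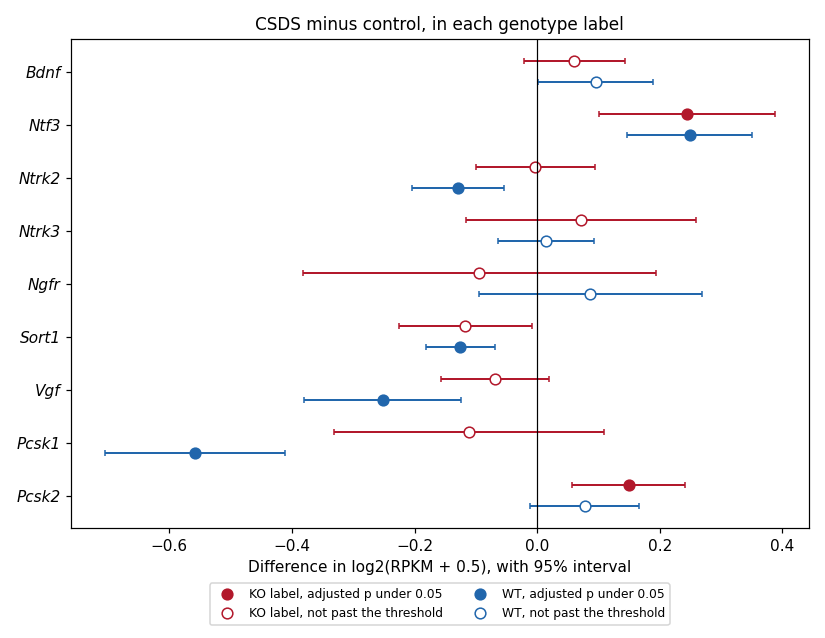
Difference in log2(RPKM + 0.5) between CSDS and control libraries for the 9 genes, knockout label above WT, with 95% intervals (5 libraries per group); filled points passed limma's test. Ntf3 is higher under both labels, and Pcsk1 is at -0.11 for the knockout label and -0.56 in WT.

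Between genotypes, 1 of 9 passed after CSDS (Bdnf, higher), where 2.24% of 18263 genes did and 1.51% were higher, and 2 of 9 among controls (Bdnf higher and Pcsk1 lower), where 3.95% did, 2.45% higher and 1.50% lower. Groups did not overlap for the same number of the 9 genes, 1 after CSDS and 2 among controls, against 5.45% and 4.96% of all genes. The Bdnf difference thus had a like size with and without defeat, and the change of that difference was -0.03 ± 0.05 with a 95% interval of -0.15 to 0.080. The receptors Ntrk3, Ngfr and Sort1 had log2 differences between -0.13 and 0.05 and did not pass in either comparison. Ntrk2 was at -0.10 ± 0.04 among controls (limma adjusted p = 0.165) and 0.02 ± 0.04 after CSDS (adjusted p = 0.824).

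**Figure D3:**
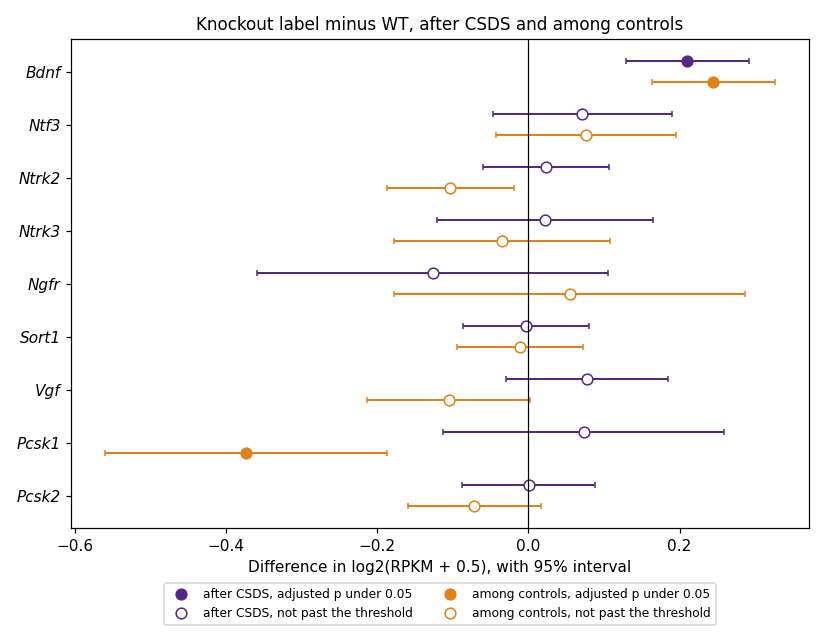
Difference in log2(RPKM + 0.5) between libraries of the knockout label and WT for the 9 genes, after CSDS above controls, with 95% intervals (5 libraries per group); filled points passed limma's test. Bdnf is higher in both comparisons, at 0.21 and 0.24, and Pcsk1 is at 0.07 after CSDS and -0.37 among controls.

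The genes whose pattern over the 20 libraries was most like that of Bdnf were Bzw1, Ncald and Lancl1. The root mean square difference of their standardised log2 levels from Bdnf was 0.444, 0.464 and 0.471 among 13125 genes of mean RPKM at least 1. Ncald, which encodes the calcium sensor neurocalcin delta, averaged 73.3 ± 4.32 RPKM after CSDS and 64.5 ± 1.76 RPKM in controls of the knockout label, and 59.2 ± 1.80 and 54.2 ± 1.45 RPKM in WT CSDS and control libraries. Of the 7 other genes among the 9 that reached this mean, Ntf3 was the nearest to Bdnf, at 0.980, and Pcsk1 the farthest, at 1.70. For Vgf the nearest were Tnk2 (0.528), Rusc2 (0.530) and the neuronal transcription factor gene Pou3f2 (0.542). Among the others of the 9 genes that reached this mean, Pcsk1 was the nearest to Vgf, at 0.692. Ntrk2 was at 0.849 and Sort1 at 0.993. Genes outside the 9 may lie nearer to Vgf than Pcsk1 does. These are descriptions over 20 libraries that share their groups.

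Other genes of the pathway were counted from 4 lists, with 68 genes tested. After CSDS 8 of them passed as higher and 3 as lower under the knockout label (16.2%), where 15.0% of all genes passed. In WT 8 passed as higher and 11 as lower (27.9%), where 22.4% of all genes passed. The counts per list below are to be read against these shares. Among 5 further neurotrophin and receptor genes tested, 2 were higher and 0 lower after CSDS under the knockout label, and 0 higher and 2 lower in WT. The sortilin relatives Sorcs1 (2.52 ± 0.27 against 1.87 ± 0.12 RPKM, 0.34 ± 0.07, limma adjusted p = 0.00778) and Sorcs2 (0.15 ± 0.03) were higher. In WT these were at -0.06 and -0.02 and did not pass, while Sorl1 (-0.14 ± 0.04) and Sorcs3 (-0.19 ± 0.06) were lower. The differences between the effects did not pass for any of the 5. The list median was 0.087 for the knockout label and -0.062 for WT, against -0.0067 and -0.0017 over all genes. Ntf5 averaged under 0.5 RPKM and was not tested.

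Of 28 signalling adaptors of Trk receptors and p75NTR, 1 was higher and 1 lower under the knockout label, and 3 were higher and 5 lower in WT. Irs2, an insulin receptor substrate that also serves Trk signalling, was lower under both. It was 6.30, 6.64, 7.07, 7.38 and 7.09 RPKM after CSDS, against 9.62, 8.66, 9.03, 9.61 and 7.99 RPKM in controls of the knockout label (-0.36 ± 0.06, limma adjusted p = 0.00363). In WT it was 6.91, 7.18, 7.26, 7.59 and 6.81 RPKM after CSDS, against 10.7, 10.9, 10.8, 10.4 and 9.71 RPKM in controls (-0.52 ± 0.04, adjusted p = 0.000138). Neither pair overlapped. Kidins220, a scaffold of TrkB, was lower in WT (50.3 ± 1.82 against 57.5 ± 1.26 RPKM, -0.19 ± 0.03, adjusted p = 0.00172) and at -0.03 under the knockout label, where it did not pass. The p75NTR partners Ripk2 (0.19 ± 0.04) and Bex3 (0.14 ± 0.03) were higher in WT, and Maged1 (0.12 ± 0.03) was higher under the knockout label. The list median was 0.010 under the knockout label and -0.0027 in WT.

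Of 17 other processing genes tested, 3 were higher and 1 lower under the knockout label, and 4 higher and 1 lower in WT. Plat, which encodes tissue plasminogen activator and so starts the extracellular cleavage of proBDNF by plasmin, was the lower gene under both. It was 11.1, 10.5, 13.2, 11.1 and 11.7 RPKM after CSDS, against 16.0, 16.3, 16.2, 20.1 and 19.4 RPKM in controls of the knockout label (-0.59 ± 0.08, limma adjusted p = 0.00167). In WT it was 11.8 to 12.8 RPKM after CSDS, against 14.0 to 19.2 RPKM in controls (-0.36 ± 0.07, adjusted p = 0.00602). The groups were apart under both labels. Markers of endothelial cells and pericytes, where Plat is also expressed, had lower mean levels after CSDS too. For the knockout label 4 of 6 passed as lower, with summed levels of 42.1 to 52.3 RPKM after CSDS and 55.2 to 65.7 RPKM in controls. In WT 2 of 6 passed as lower, with 47.9 to 54.7 RPKM after CSDS and 50.5 to 61.4 RPKM in controls. Of all genes, 8.88% passed as lower under the knockout label and 12.5% in WT. For the mean log2 level of this list the exact permutation p was 0.0079 under the knockout label and 0.135 in WT. Adjusted over the 17 marker lists these were 0.045 and 0.328, so the list did not pass in WT. No marker was at 0, and the part of these markers in the change of Plat was not tested. Pam, the amidating enzyme of peptide hormones, was higher under both (0.12 ± 0.03 and 0.13 ± 0.03), Pcsk7 and Ece2 were higher under the knockout label (0.17 ± 0.05 and 0.20 ± 0.05), and Pcsk4 (0.32 ± 0.07) and the protease inhibitor gene Serpine2 (0.15 ± 0.04) in WT. The list median was 0.0090 under the knockout label and 0.011 in WT. Plg, the gene of the plasmin precursor, averaged 0.0114 RPKM over the 20 libraries and was not tested.

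Among 18 granins and dense core vesicle genes, 2 were higher and 1 lower under the knockout label, and 1 higher and 3 lower in WT. Syt4, a synaptotagmin of dense core vesicles that in neurons limits BDNF release, was lower under both. It averaged 34.1 ± 1.00 RPKM after CSDS and 40.8 ± 2.70 RPKM in controls of the knockout label (-0.25 ± 0.04, limma adjusted p = 0.00544), and 35.0 ± 1.25 RPKM after CSDS and 44.1 ± 1.98 RPKM in WT controls (-0.33 ± 0.04, adjusted p = 0.000434). Ica1 was higher under both (0.21 ± 0.03 and 0.24 ± 0.04). Baiap3 was higher under the knockout label (0.59 ± 0.17), and Ccdc186 (-0.15 ± 0.02) and Cadps (-0.11 ± 0.03) were lower in WT. The list median was 0.076 under the knockout label and -0.014 in WT. Over the 4 lists, 0 genes passed in the test of the difference between the effects. Of 25 calls named here after CSDS, 7 were lost without at least 1 library, with adjusted p of at most 0.104: Pcsk7, Ece2, Pam and Baiap3 under the knockout label and Sorl1, Sorcs3 and Cadps in WT. With the conflicting libraries assigned by treatment field, 0 of 11 of these calls held under the knockout label and 6 of 14 in WT, those of Irs2, Kidins220, Plat, Pcsk4, Syt4 and Ica1.

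**Figure D4:**
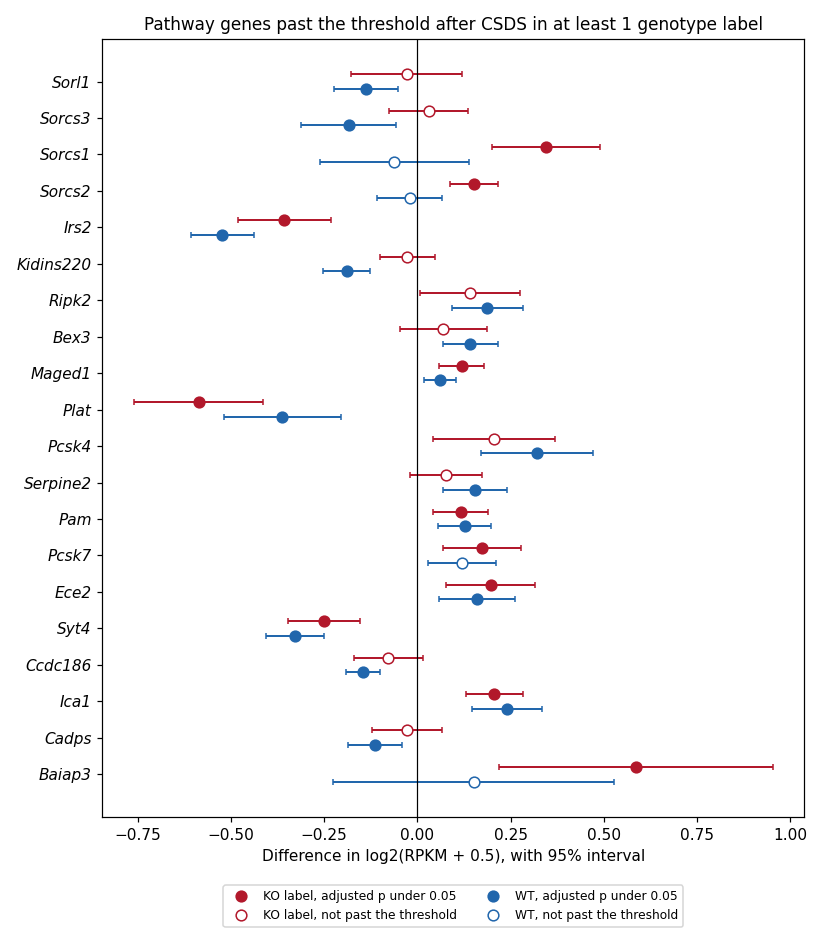
Difference in log2(RPKM + 0.5) between CSDS and control libraries for pathway genes named from the 4 lists, knockout label above WT, with 95% intervals (5 libraries per group); filled points passed limma's test. Plat, Irs2 and Syt4 are lower and Ica1 and Pam higher under both labels.

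Between genotypes, 4 of 68 genes tested over the 4 lists (5.88%) passed after CSDS, all higher under the knockout label, where 2.24% of all genes passed. Among controls 3 of 68 (4.41%) passed, all lower, where 3.95% of all genes passed. These were Irs2 (-0.22 ± 0.05), Chga, the chromogranin A gene (-0.16 ± 0.04), and Scg5 (-0.76 ± 0.15, limma adjusted p = 0.00751). The genes higher after CSDS were Ptpn11, Maged1 and Kidins220 (0.11 ± 0.02, 0.10 ± 0.02 and 0.12 ± 0.03) and Scg2, the secretogranin II gene (0.16 ± 0.04). The part of the immediate early genes given beside Pcsk1 in the Irs2 difference was not tested either. Scg5 encodes 7B2, the chaperone that PC2 needs to become active. It was 73.2, 76.1, 69.0, 70.5 and 76.8 RPKM in knockout-labelled controls, against 164, 91.7, 79.2, 159 and 154 RPKM in WT controls. WT controls 6, 9 and 10 were thus far above every other library in the 4 groups, since the CSDS libraries were at 75.3 to 81.8 RPKM for the knockout label and 80.4 to 88.8 RPKM for WT. With only the control groups in the fit the Scg5 call was lost (adjusted p = 0.0982). Of these 7 calls, the one of Scg5 was the only one that held without any 1 library.

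**Figure D5:**
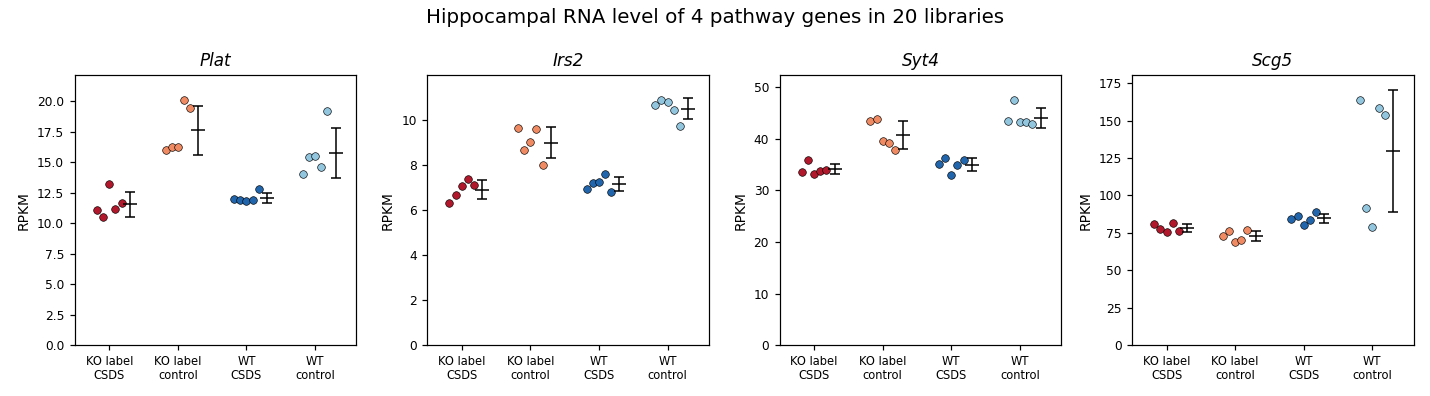
RPKM of Plat, Irs2, Syt4 and Scg5 in each of 20 libraries, by group, with 5 points per group and the mean and SD beside them; y axes start at 0. Plat, Irs2 and Syt4 are lower after CSDS under both labels, and Scg5 splits the WT controls into 3 libraries at 154 to 164 RPKM and the other 2 at 79.2 and 91.7 RPKM.

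Genes of neuronal activity and some markers of tissue make-up differed with defeat. Of all genes, 6.17% passed as higher and 8.88% as lower under the knockout label, and 9.88% and 12.5% in WT. Of 18 immediate early genes tested, 9 were lower under the knockout label and 14 in WT, and 0 were higher. Their summed level was 120 to 140 RPKM after CSDS and 154 to 192 RPKM in knockout-labelled controls, and 128 to 152 RPKM after CSDS and 168 to 209 RPKM in WT controls. The mean log2 level did not overlap between groups, and the exact permutation p was 0.0079 in each, the smallest that 5 against 5 allows. Structural RNAs were lower by 1.57 on the log2 scale under the knockout label (4 of 7 passed) and by 1.31 in WT (7 of 7 passed), with the same exact p. Their summed level was 55.1 to 84.8 RPKM after CSDS and 88.0 to 563 RPKM in knockout-labelled controls, and 52.9 to 85.8 RPKM after CSDS and 94.4 to 301 RPKM in WT controls. Red blood cell genes passed as higher in WT for 5 of 5, with 559 to 2807 RPKM after CSDS and 206 to 297 RPKM in controls, and 0 of 5 passed under the knockout label. Meningeal fibroblast genes passed as lower under the knockout label for 6 of 8, with 34.2 to 61.5 RPKM after CSDS and 56.8 to 103 RPKM in controls, and for 0 of 8 in WT. Interneuron markers passed as higher under the knockout label for 3 of 6, with 322 to 344.5 RPKM after CSDS and 291 to 337 RPKM in controls. In WT 0 of these 6 passed as higher and 1 as lower, with 275 to 311 RPKM after CSDS and 262 to 324 RPKM in controls. The difference between these effects did not pass for any of the 6. What part these had in the changes of Pcsk1, Vgf, Ntf3, Pcsk2, Sorcs1 or the other genes was not tested.

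The authors' deposited table, made with edgeR per its headers, gave the same directions for the genes that passed here. Its fold changes are coded as control over CSDS and are turned round in this paragraph to CSDS over control. In the authors' deposited table Pcsk1 was at -0.13 under the knockout label and -0.62 in WT, with false discovery rates of 0.328 and 1.12e-09. Vgf had a false discovery rate of 0.298 under the knockout label and 8.13e-05 in WT in the authors' deposited table, and Ntf3 had 0.0017 and 0.00444. For Bdnf the authors' deposited table listed 0.0854 and 0.119 as the log2 changes, with false discovery rates of 0.230 and 0.0787. The mean control levels in the authors' deposited table average the 3 libraries of conflicting label with the controls, while the series text counts 6 or 7 libraries after CSDS, as the treatment fields do.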

How the data were processed

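RNA was isolated with a lipid tissue kit and poly(A) libraries came from the TruSeq V2 kit, per the labels' protocols; the kit does not mark strand. STAR and mm10 are named in the submitters' processing notes. The counting tool was not given in the sources used here, nor was the annotation. The authors deposited RPKM per gene and library, 1 table per genotype. Per the file headers the authors' tables also hold edgeR log2 fold changes, a score and p-values with false discovery rates. Of 39017 gene identifiers, 37607 were found in GENCODE M21, and the coordinates of the 9 genes are the same there.

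Tests used log2(RPKM + 0.5) of genes whose mean RPKM reached 0.5, with limma 3.58.1 (trend, two-sided, Benjamini-Hochberg over all genes, threshold 0.05; R 4.3.3). Changes of low genes come out too small on this scale. CSDS was tested within each table, and the other 3 comparisons in a fit of all 4 groups across tables. The code was tested on simulated data. Depth was estimated from whole-read steps of 6318 single-exon genes, where 88.9% to 92.1% of values lay within 0.05 of a whole read; with GENCODE lengths this was 72.9% for genes of several exons. The 9 genes, 4 pathway lists and 17 marker lists were chosen with earlier results of these data known; some genes of these lists are not reported here. The 4 genes of smallest p per list and comparison were named where they passed, and the 3 genes most like Bdnf and Vgf. Alternatives were other pseudocounts, filters, scaling, assignments of the conflicting libraries, groups fitted, a replicate block and leaving out each library. The labels number the libraries but do not say that each is a separate animal, so the p-values rest on the spread between libraries, which may be technical. Promoter windows came from RefSeq (GRCm38.p6).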

Additional observations from a re-analysis of the deposited data

Results flagged for a closer look

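In 4 of 36 groups of 5 libraries, 1 library lay far from the other 4 (gap over range above Dixon's value of 0.71; chance flags about 1 group in 20). Ntrk2 was 45.3 RPKM in knockout-labelled CSDS library 4 and 38.4 RPKM in knockout-labelled control 10, the highest and the lowest of their groups. Ntrk3 was 11.1 RPKM in knockout-labelled CSDS library 5 and 11.2 RPKM in WT control 8, each the highest of its group. The CSDS difference of neither gene passed under the knockout label, with or without these libraries.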

How the results depend on the processing

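Directions of all member calls held in every alternative run. With the conflicting libraries assigned by treatment field, 143 genes and 0 of the 9 passed for CSDS under the knockout label, 1240 and 1 in WT, 1 gene in the difference of effects, and 399 and 1 among controls. Assigned by title, the difference had 98 genes and the control comparison 1627. Without a filter on low values 0 of the 9 passed under the knockout label. A fit of only the control groups gave 209 genes. Same-numbered libraries of the genotypes correlated at -0.0054 to 0.0972 after CSDS and -0.107 to 0.371 in controls. Knockout-labelled controls 6, 8 and 10 correlated best with the WT control of their own number (0.21, 0.304 and 0.371), and 7 and 9 did not. After CSDS, libraries 2 and 4 also correlated best with their own number (0.0972 and 0.0363), and 1, 3 and 5 did not. As not every pair correlated, the numbers were not taken as pairs. The replicate block left 0 of the 9 after CSDS between genotypes. Chosen after seeing the data, leaving out control 10 of both genotypes gave 181 genes in the difference and 629 between genotypes after CSDS.

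Leaving out 1 library in turn gave 1658 to 3668 genes and 0 to 3 of the 9 for the knockout label, 3077 to 4016 and 5 to 5 in WT, 16 to 244 and 0 in the difference, 245 to 474 and 1 after CSDS, and 368 to 890 and 1 to 2 among controls. The difference count was highest without WT control 10, and the knockout-label count lowest without its CSDS library 4.

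Changes of sign touched uncalled values near 0. With median ratio scaling Ntrk2 under the knockout label was 0.0069, Ntf3 in the difference 0.0002 and Pcsk2 after CSDS -0.0036. By title Ngfr among controls was -0.051 and Sorcs3 under the knockout label -0.0081. By treatment field Ntrk2, Sort1 and Pcsk2 after CSDS were -0.004, 0.0131 and -0.0341. Without both controls 10, Ntrk3 was -0.014 under the knockout label, -0.0203 in the difference and 0.0423 among controls, and Sort1 -0.0315 and 0.0286 in the difference and among controls. Without 1 library, Ntrk2 ran from -0.0439 to 0.0156 and Ntrk3 from -0.014 to 0.115 under the knockout label. In the difference, Ntf3 ran from -0.0444 to 0.0309, Ntrk3 from -0.0285 to 0.1004 and Sort1 from -0.0365 to 0.0396. After CSDS, Pcsk1 ran from -0.0088 to 0.1282, Pcsk2 from -0.0226 to 0.0195 and Sort1 from -0.0184 to 0.0085. Among controls, Ngfr ran from -0.0085 to 0.1268, Nradd from -0.0495 to 0.1339, Ntrk3 from -0.0784 to 0.0506 and Sort1 from -0.0425 to 0.0335. Nrsn2 in WT ran from -0.0218 to 0.0568. The cause was not tested. Among the genes named at the outset, Ngfr rested on the fewest estimated reads, about 43 to 153 per library. Ntf3 came next, at about 138 to 363. Whether depth set the spread of Ngfr was not tested.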

Other observations

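The 3 libraries of conflicting label belong to no group. For the knockout label, libraries 10B and 11 had 5.08 and 5.29 RPKM of Bdnf, 2.81 and 2.83 RPKM of Ntf3, 6.95 and 6.37 RPKM of Pcsk1 and 41.1 and 39.2 RPKM of Vgf. WT library 9B had 4.05 RPKM of Bdnf, 2.51 RPKM of Ntf3, 8.49 RPKM of Pcsk1 and 38.9 RPKM of Vgf. Scg5 was 75.6 and 73.7 RPKM in libraries 10B and 11 and 154 RPKM in WT 9B, a value chosen after it was seen.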
